A study of Mus musculus with 6 samples.

Results

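The genes described here are 31 genes of the oligodendrocyte lineage and of myelin, chosen by name, out of 55098 genes listed for mouse cerebellum. All 31 were found by their gene symbol, all 31 had enough counts to be tested, and they were sorted by textbook knowledge into 4 precursor, 3 lineage-wide, 6 forming and 18 mature members. Cerebella were taken whole from 6 males on postnatal day 60 for RNA-seq: 3 libraries labelled KO, from Slc39a14 knock-out animals 2, 4 and 6, and 3 labelled WT, from Slc39a14 wildtype animals 1, 3 and 5. The product of Slc39a14, ZIP14, carries metal ions such as manganese into cells. The sources used here do not say what the allele lacks or in which cells.

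Library totals ranged from 13805997 to 15788135 gene counts, and the 31 genes took 65594 to 87222 of these counts, or 0.451% to 0.561% of a library. The knocked-out gene itself was examined first. Slc39a14 had 654, 572 and 640 counts in KO 2, 4 and 6 and 582, 646 and 598 counts in WT 1, 3 and 5, with a log2 fold change of -0.003 (SE 0.11). The gene count therefore did not check the genotype labels, and KO and WT below name the libraries labelled so. Granule cell and Purkinje cell markers were abundant in every library, with summed levels of at least 5475 and 6428.5 CPM (counts scaled to library size), so the labelled tissue carried its defining markers.

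Oligodendrocytes are the cells that wrap axons of the central nervous system in myelin, a stack of compacted membrane rich in galactolipids and in a few abundant proteins. They arise from proliferating precursor cells, which carry the PDGF receptor alpha and the NG2 proteoglycan, pass through a short-lived forming stage marked by genes such as Gpr17 and Bcas1, and then switch on myelin genes under the transcription factors Sox10 and Myrf. In the cerebellum most of them lie in the white matter, and precursors persist there in the adult. In whole tissue, fewer cells of a type and less RNA per cell cannot be told apart.

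Mature myelin genes made up most of the lineage's RNA per length in each library. In FPKM, the authors' counts scaled to gene length and library size, the 18 mature members summed to 763 ± 69.2 in KO and 780 ± 101 in WT (mean ± SD, n = 3 libraries each). The 6 forming members summed to 75.8 ± 1.88 FPKM in KO and 73.6 ± 9.29 FPKM in WT. The 3 lineage-wide members summed to 44.4 ± 8.73 FPKM in KO and 41.4 ± 5.76 FPKM in WT, and the 4 precursor members to 24.3 ± 0.416 FPKM in KO and 23.7 ± 0.893 FPKM in WT. Most of the precursor sum came from Tnr (means 11.3 FPKM in KO and 11.4 in WT) and Cspg5 (9.06 and 8.80 FPKM). Neither gene is limited to the lineage. At each stage the difference between the means was smaller than the larger of the SDs. The library totals implied by the FPKM values exceeded the listed gene counts. Listed counts were 93.8% to 94.9% of that total in KO libraries and 95.8% to 97.7% in WT libraries. FPKM thus stood slightly lower in KO, relative to WT, than counts scaled to the listed totals.

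Mbp, whose product holds the inner faces of the myelin membrane together, had the highest level of the 31 genes, at 267 ± 41.0 FPKM in KO and 255 ± 24.4 FPKM in WT (mean ± SD, n = 3 libraries each). It took 26.9% to 30.5% of the lineage's summed FPKM in KO libraries and 27.3% to 28.2% in WT libraries. Mobp followed at 99.9 ± 8.60 FPKM in KO and 105 ± 32.1 FPKM in WT, and Cnp at 89.7 ± 10.2 FPKM in KO and 94.8 ± 4.66 FPKM in WT. These neighbours in the order, Mobp and Cnp, did not differ beyond their spread. At the other end, the precursor gene Cspg4 was at 0.914 ± 0.149 FPKM in KO and 0.966 ± 0.211 FPKM in WT.

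**Figure D1:**
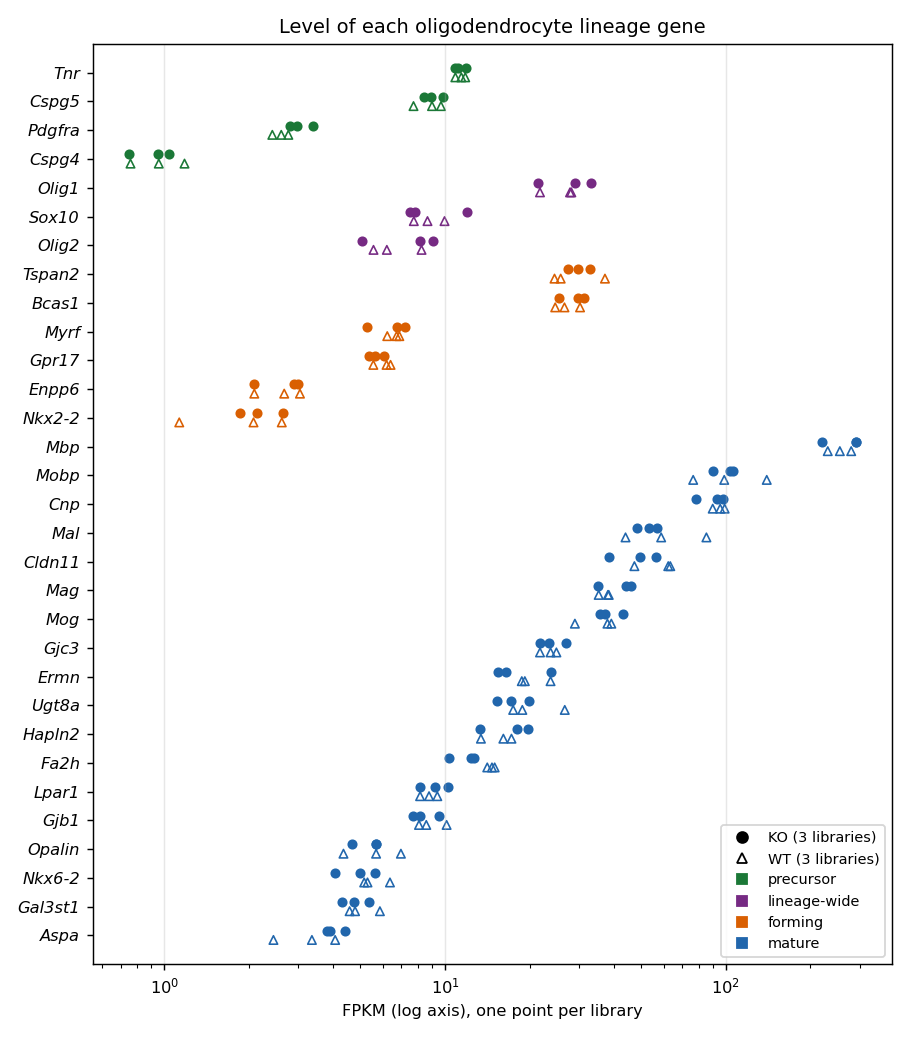
The plot gives the FPKM of each gene on a log axis, with 1 point per library (filled circles KO, open triangles WT) and genes sorted by stage and by level. Only Pdgfra and Fa2h have KO and WT points that do not overlap, and mean levels run from Cspg4 (0.914 FPKM in KO) to Mbp (267 FPKM in KO).

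None of the 31 genes passed the test of KO against WT across all genes. By edgeR's quasi-likelihood test with Benjamini-Hochberg adjustment over 17142 genes, 0 members were called, and 0 were called by DESeq2 and in the authors' deposited table. Of all tested genes 0.0467% were called by edgeR, and DESeq2 called 42 of 32040 genes with a p-value. At an unadjusted p under 0.05 the count was 1 member by edgeR (Fa2h), where 2.75% of all tested genes lay. By DESeq2 it was 1 member, where 448 of the 32040 genes lay. KO and WT libraries did not overlap in 2 members, Pdgfra (higher in KO) and Fa2h (lower in KO), against 7.26% of all tested genes (3.58% higher and 3.68% lower in KO). The share among the 31 is near that background.

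Of the log2 fold changes, which are KO minus WT throughout, 17 were positive and 14 negative. Their median was 0.05, beside -0.004 over all tested genes, of which 48.8% were positive. With single libraries left out the median of the 31 was between -0.010 (without WT 3) and 0.041 (without WT 1), and it was -0.0076 without KO 6 and 0.0069 without KO 2, so that its sign rested on single libraries. The values ran from -0.30 (Fa2h) to 0.31 (Aspa), so that no member differed by more than 1.24-fold in the fitted value. The 95% intervals, which are not adjusted for the number of genes, reached at most from a 0.627-fold level (Mal) to a 1.81-fold level (Nkx2-2). Changes of 2-fold in either direction thus lay outside the interval of each of the 31 genes.

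**Figure D2:**
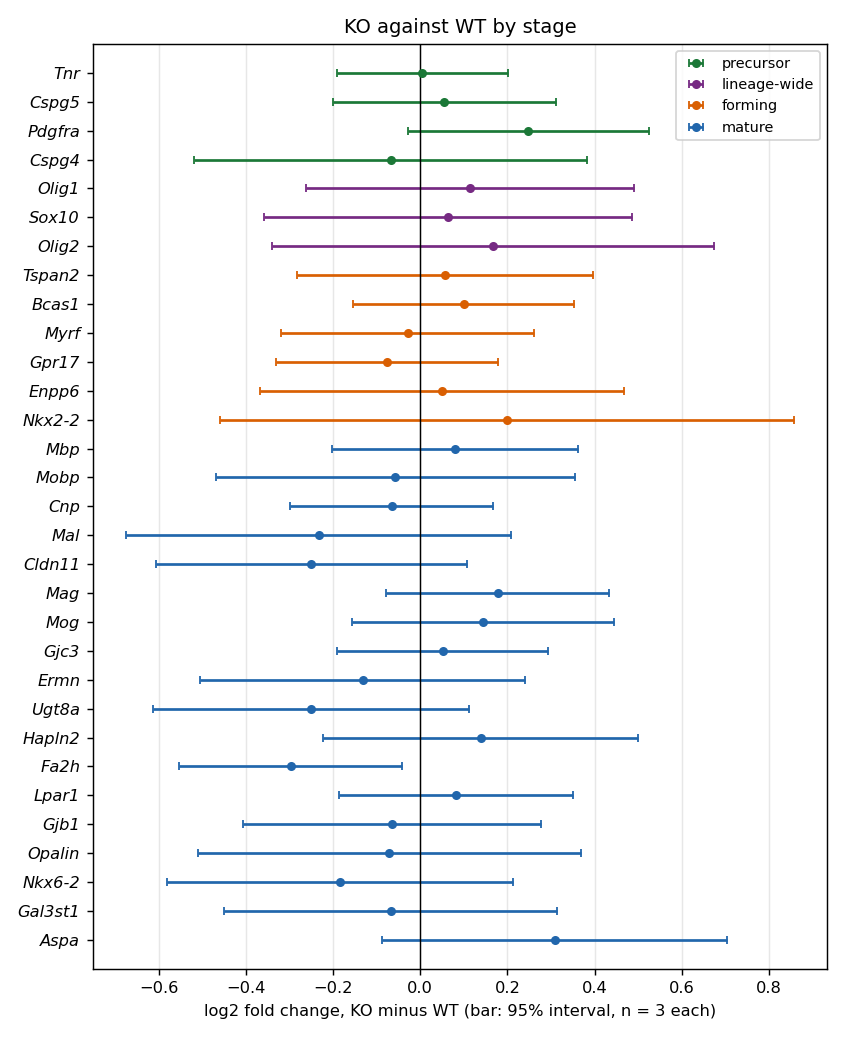
The plot gives each gene's log2 fold change (KO minus WT, n = 3 libraries each) with its 95% interval from the edgeR fit, by stage and then by level. The interval of Fa2h alone (-0.55 to -0.04) leaves out 0, and the widest interval belongs to Nkx2-2 (-0.46 to 0.86).

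The precursor members encode the receptor Pdgfra, through which PDGF drives division and survival of precursors, and the matrix or surface proteoglycans Cspg4 (NG2) and Cspg5 with the matrix glycoprotein Tnr (tenascin-R). Pdgfra was at 36.0, 31.5 and 29.5 CPM in KO 2, 4 and 6, against 29.1, 27.4 and 25.2 CPM in WT 1, 3 and 5 (CPM normalized by TMM, the trimmed mean of M-values). Every KO library was thus above each WT library, but the lowest KO and the highest WT library were close. The means were 32.3 ± 3.32 CPM in KO and 27.2 ± 1.94 CPM in WT (mean ± SD, n = 3 libraries each; log2 fold change 0.25, SE 0.12, adjusted p = 1.0 by edgeR), which does not pass the test.

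Pdgfra is also made by fibroblasts of the meninges. All 7 meningeal fibroblast markers (Dcn, Col1a2, Col1a1, Lum, Slc6a13, Igf2 and Aldh1a2) had positive log2 fold changes with a median of 0.22, and 0 of the 7 were called. Their summed level was 107 to 146 CPM in KO libraries and 82.1 to 119 CPM in WT libraries, with none at 0. Their part in the Pdgfra values was not tested. The Pdgfra count may also include antisense reads, since 2 annotated transcripts on the opposite strand (Gm42802 and Gm42803) overlap its exons and no source used here says whether counting used the strand.

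Tnr was the most even gene of the 31, at 148, 161 and 151 CPM in KO 2, 4 and 6 and at 154, 146 and 157 CPM in WT 1, 3 and 5. The highest library exceeded the lowest 1.10-fold, and the 95% interval of the log2 fold change was -0.19 to 0.20. Tnr is made by some neurons of the cerebellum as well as by the lineage. Cspg5, also not limited to the lineage, was at 94.9, 89.2 and 104 CPM in KO and at 95.02, 102 and 80.7 CPM in WT (log2 fold change 0.06, SE 0.11). Cspg4 was at 12.01, 9.43 and 13.1 CPM in KO and at 11.98, 14.7 and 9.39 CPM in WT (log2 fold change -0.07, SE 0.20). In both, the groups overlapped, and KO 4 and WT 5 were the lowest libraries. Pericytes carry Cspg4 too, and the 7 mural cell markers summed to 198 to 209 CPM in KO and 179 to 192 CPM in WT, without overlap, with 5 positive log2 fold changes and 0 called. Taken gene by gene, 0 of the 7 mural cell markers separated the groups. Their part in the Cspg4 values was not tested.

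The lineage-wide members are the transcription factors Olig1, Olig2 and Sox10, which are present from precursor to mature cell. Olig1 was at 75.5, 48.7 and 66.1 CPM in KO 2, 4 and 6 and at 63.2, 63.7 and 48.8 CPM in WT 1, 3 and 5 (log2 fold change 0.12, SE 0.17). Olig2, which specifies the lineage, was at 24.3, 13.5 and 21.6 CPM in KO and at 16.5, 21.8 and 14.6 CPM in WT (log2 fold change 0.17, SE 0.23). Both genes were lowest in KO 4 and WT 5, 1 library of each group, so that the groups covered each other. Sox10, which acts with Myrf on myelin genes, was at 24.3, 25.1 and 38.6 CPM in KO and at 27.7, 31.8 and 24.5 CPM in WT (log2 fold change 0.06, SE 0.19). Its high library was KO 6. None of the 3 was called (adjusted p = 1.0 by edgeR for each). Olig1 and Olig2 are neighbours on chromosome 16 (91269772 to 91271933 and 91225457 to 91228677, GRCm38.p6).

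The forming members carry cells from precursor to myelin. Gpr17, a receptor of cells that have left the precursor state, was at 30.8, 29.3 and 33.2 CPM in KO and at 33.8, 30.2 and 34.5 CPM in WT (log2 fold change -0.08, SE 0.11). Bcas1, found in cells that have begun to myelinate, was at 119, 102 and 124 CPM in KO and at 105, 97.4 and 118 CPM in WT (log2 fold change 0.10, SE 0.11). Neither separated the groups, and the spread between libraries was small, at 1.17-fold for Gpr17 and 1.27-fold for Bcas1 from lowest to highest.

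Tspan2, a membrane protein of the tetraspanin family, was at 150, 164 and 137 CPM in KO and at 122, 128 and 183 CPM in WT (log2 fold change 0.06, SE 0.15). Here KO 4 and WT 5 were the highest libraries, the reverse of Olig1 and Olig2. Myrf, the factor that switches on the myelin genes, was at 61.0, 47.5 and 65.2 CPM in KO and at 61.8, 60.2 and 55.3 CPM in WT (log2 fold change -0.03, SE 0.13), with KO 4 and WT 5 lowest again. Enpp6, a choline phosphodiesterase of newly formed oligodendrocytes, lay between 14.1 and 20.3 CPM in KO and between 14.04 and 20.2 CPM in WT (log2 fold change 0.05, SE 0.19). Nkx2-2, a transcription factor of the step out of the precursor state, had means of 6.73 ± 1.21 CPM in KO and 5.85 ± 2.30 CPM in WT (mean ± SD, n = 3 libraries each). Its range over the libraries, 2.33-fold, was the widest of the 31 genes and came with the lowest counts, 46 in WT 5 and 81 to 112 in the other 5 libraries.

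Among the mature members, 9 encode proteins of the myelin membrane or of its adhesion and compaction, and 3 of these 9 had a positive log2 fold change. Mbp was at 2584, 1942 and 2563 CPM in KO 2, 4 and 6 and at 2245, 2026 and 2436 CPM in WT 1, 3 and 5 (log2 fold change 0.08, SE 0.13). The lowest and the highest library of Mbp were both KO libraries. Mobp, a small protein of compact myelin, was at 769, 650 and 745 CPM in KO and at 709, 548 and 993 CPM in WT (log2 fold change -0.06, SE 0.18). Cnp, an enzyme that keeps channels of cytoplasm open in myelin, was at 357, 300 and 375 CPM in KO and at 365, 342 and 374 CPM in WT (log2 fold change -0.07, SE 0.10). Mal, a lipid raft protein of compact myelin, was at 167, 155 and 142 CPM in KO and at 172, 128 and 246 CPM in WT (log2 fold change -0.23, SE 0.20). For Mobp and Mal both ends of the range were WT libraries, WT 5 high and WT 3 low.

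The other membrane members had interval limits on both sides of 0. Mag, an adhesion protein on the membrane that faces the axon, was at 190, 150 and 196 CPM in KO and at 162, 163 and 149 CPM in WT (log2 fold change 0.18, SE 0.11). Mog, on the outermost myelin surface, had means of 69.4 ± 6.98 CPM in KO and 62.8 ± 9.68 CPM in WT (log2 fold change 0.14, SE 0.13). Cldn11, which forms the tight junctions of myelin, had means of 94.7 ± 18.1 CPM in KO and 113 ± 17.6 CPM in WT (log2 fold change -0.25, SE 0.16). Ermn (ermin, a cytoskeletal protein) and Opalin (a glycoprotein of oligodendrocyte membrane) were at -0.13 (SE 0.17) and -0.07 (SE 0.20) on the log2 fold change scale. Mag, Mog and Mbp were thus positive while Cldn11, Mal, Ermn, Opalin, Cnp and Mobp were negative, and none of these directions passed the test.

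Of the enzymes of myelin lipids, Fa2h and Ugt8a act in the same pathway: Fa2h adds the hydroxyl group to the fatty acids of galactolipids, and Ugt8a makes galactosylceramide. Fa2h was at 39.3, 32.7 and 40.1 CPM in KO 2, 4 and 6, against 46.4, 44.5 and 46.9 CPM in WT 1, 3 and 5. Every KO library lay below every WT library. The means were 37.4 ± 4.08 CPM in KO and 45.9 ± 1.27 CPM in WT (mean ± SD, n = 3 libraries each), with a log2 fold change of -0.30 (SE 0.11, 95% interval -0.55 to -0.04, adjusted p = 1.0 by edgeR and unadjusted p = 0.0273). The gene did not pass over all genes, and with single libraries left out its log2 fold change stayed between -0.35 and -0.21.

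Ugt8a was at 82.1, 95.2 and 73.4 CPM in KO and at 89.7, 82.95 and 126 CPM in WT (log2 fold change -0.25, SE 0.16). The groups overlapped, with WT 5 the highest library. Gal3st1, which sulphates galactosylceramide to sulphatide, had means of 10.3 ± 1.14 CPM in KO and 10.8 ± 1.53 CPM in WT (mean ± SD, n = 3 libraries each; log2 fold change -0.07, SE 0.17). Aspa, which releases acetate from N-acetylaspartate for lipid synthesis, had means of 25.3 ± 1.96 CPM in KO and 20.4 ± 4.94 CPM in WT (log2 fold change 0.31, SE 0.18), the highest log2 fold change of the 31. The 3 galactolipid enzymes were therefore negative and Aspa positive, with only Fa2h separating the groups. With single libraries left out, Ugt8a ran from -0.36 to -0.044 and Gal3st1 from -0.15 to 0.053. The sign of Gal3st1 thus rested on single libraries, and the value of Ugt8a was nearest 0 without WT 5.

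In the remaining mature members KO and WT libraries overlapped. The gap junction genes Gjb1 (connexin 32) and Gjc3 (connexin 29) were at -0.06 (SE 0.15) and 0.05 (SE 0.11) on the log2 fold change scale. Nkx6-2, a transcription factor of mature oligodendrocytes, was at -0.18 (SE 0.18) with 117 to 160 counts in KO libraries and 139 to 199 in WT libraries. Lpar1, a receptor for lysophosphatidic acid, was at 0.08 (SE 0.12), and Hapln2, a link protein of the matrix at nodes of Ranvier, at 0.14 (SE 0.16). Cnp, Ermn and Nkx6-2 share exonic sequence with protein-coding genes on the opposite strand (Dnajc7, Galnt5 and Inpp5a), as Gpr17 does with Lims2. Transcripts on the opposite strand also overlap Bcas1, Nkx2-2, Tspan2, Tnr and Olig1, and these counts are uncertain in the same way. On the same strand, Mobp overlaps the processed transcript Gm38642 and Pdgfra the microRNA gene Mir7025. Reads in those overlaps are uncertain whatever the strand setting.

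The stages were then set against each other. The level of a stage in a library was taken as the mean log2 CPM of its members, each centred on its mean over the 6 libraries. KO minus WT differences of this level were 0.06 for precursor, 0.10 for lineage-wide, 0.06 for forming and -0.03 for mature members. The within-group SDs were 0.07 in KO and 0.13 in WT for precursor, 0.31 and 0.22 for lineage-wide, 0.07 and 0.08 for forming, and 0.04 and 0.13 for mature members, so that each difference was smaller than at least one of the SDs. Medians of the fitted log2 fold changes were 0.03 for precursor, 0.12 for lineage-wide, 0.05 for forming and -0.07 for mature members. None of these signs held with each library left out in turn. The precursor median was -0.0010 without WT 5 and 0.12 without WT 3, and the lineage-wide median was -0.0062 without KO 2, 0.0030 without WT 5 and 0.28 without KO 4. The forming median was 0.0066 without KO 2 and -0.014 without WT 3, and the mature median was -0.10 without WT 3 and 0.045 without WT 5. No member of any stage was called.

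The contrast of precursor with mature members, as the difference of the 2 stage levels within a library, was 0.08, 0.01 and 0.05 in KO 2, 4 and 6 and -0.04, 0.20 and -0.31 in WT 1, 3 and 5. The KO libraries lay within the range of the WT libraries. Forming minus mature was 0.09, 0.01 and 0.05 in KO and -0.01, 0.02 and -0.16 in WT, again with overlap. WT 3 and WT 5 were at the ends of the mature stage, at -0.13 and 0.13, while the 3 KO libraries lay between -0.06 and 0.02. Both contrasts thus varied more among WT animals than between the group means. Lineage-wide minus mature was spread widely within both groups, at 0.18, -0.24 and 0.25 in KO and -0.09, 0.30 and -0.41 in WT. Some members are also made by cells outside the lineage, and these levels were given no test.

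**Figure D3:**
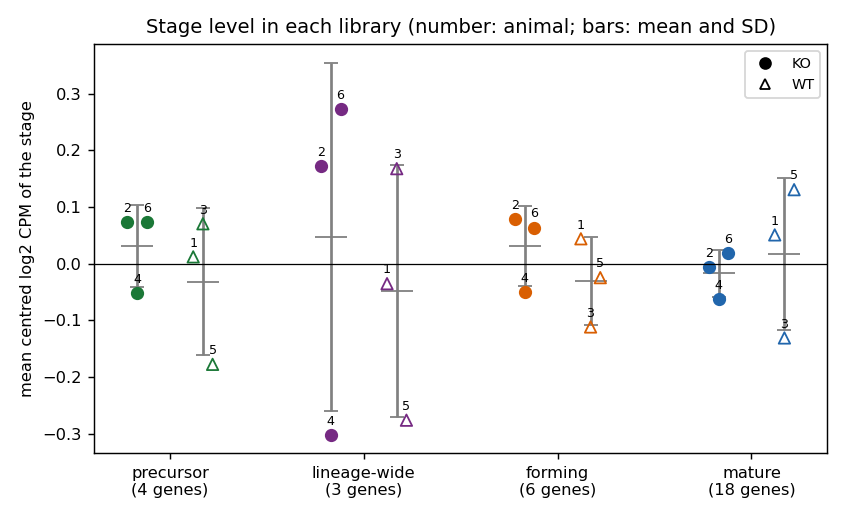
The plot gives the mean centred log2 CPM of each stage in each library (filled circles KO, open triangles WT, number: animal), with the mean and SD of each group in grey. KO and WT overlap at each stage, KO 4 and WT 5 are low among the lineage-wide factors (-0.30 and -0.28), and WT 5 is the highest among mature members (0.13).

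For some of the genes the spread between animals went with the base composition of the transcripts. KO 4 and WT 5 were the lowest 2 libraries for 8 members, Cspg4, Cspg5, Olig1, Olig2, Nkx2-2, Myrf, Mag and Hapln2, whose transcripts had 51.3% to 61.1% G and C bases. The same pair were the highest 2 libraries for 6 members, Tnr, Tspan2, Ermn, Ugt8a, Gjc3 and Aspa, whose transcripts had 38.0% to 47.7%. The other 17 members, with 42.3% to 65.7%, had neither order, among them the GC-richest of the 31, Nkx6-2 (65.7%) and Sox10 (61.8%). Over all tested genes KO 4 and WT 5 were the lowest 2 for 21.0% and the highest 2 for 19.99%, so that the pair stood apart across the transcriptome and not in this lineage alone. GC content was taken from the longest protein-coding transcript in GENCODE M21 (GRCm38).

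To show the difference, the first 180 coding bases are printed of the GC-richest member of the first set, Olig1 (chr16:91269772-91271933, plus strand, GRCm38), and of the GC-poorest member of the second, Ugt8a (chr3:125865271-125938619, minus strand). Capitals mark G and C, and both runs are 5′ to 3′ from the start codon, as in GENCODE M21. Of the 180 bases 111 were G or C in Olig1 and 84 in Ugt8a, and over the whole coding sequence the share was 68.5% in Olig1 and 44.6% in Ugt8a.
Olig1: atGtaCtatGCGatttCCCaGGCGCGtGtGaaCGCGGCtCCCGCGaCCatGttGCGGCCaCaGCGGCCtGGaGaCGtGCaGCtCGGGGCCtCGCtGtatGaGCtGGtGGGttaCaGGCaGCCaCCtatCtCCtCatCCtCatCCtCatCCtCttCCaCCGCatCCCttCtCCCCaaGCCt
Ugt8a: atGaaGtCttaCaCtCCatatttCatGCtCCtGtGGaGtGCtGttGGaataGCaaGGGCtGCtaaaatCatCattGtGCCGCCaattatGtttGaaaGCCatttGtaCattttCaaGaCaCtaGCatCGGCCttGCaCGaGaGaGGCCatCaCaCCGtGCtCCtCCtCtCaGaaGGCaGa

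Across the 31 genes, the deviation of a gene from its mean correlated with its GC content at r = -0.78 in KO 4 and -0.57 in WT 5, at 0.72 in KO 6 and 0.62 in WT 3, and at 0.16 in KO 2 and 0.32 in WT 1. Over 16913 genes with a GC value the same correlations were -0.41 in KO 4, -0.45 in WT 5, 0.42 in KO 6, 0.30 in WT 3, 0.08 in KO 2 and 0.24 in WT 1. These are correlations across genes, which share their library and are not independent replicates. Libraries of both groups lay on both sides.

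**Figure D4:**
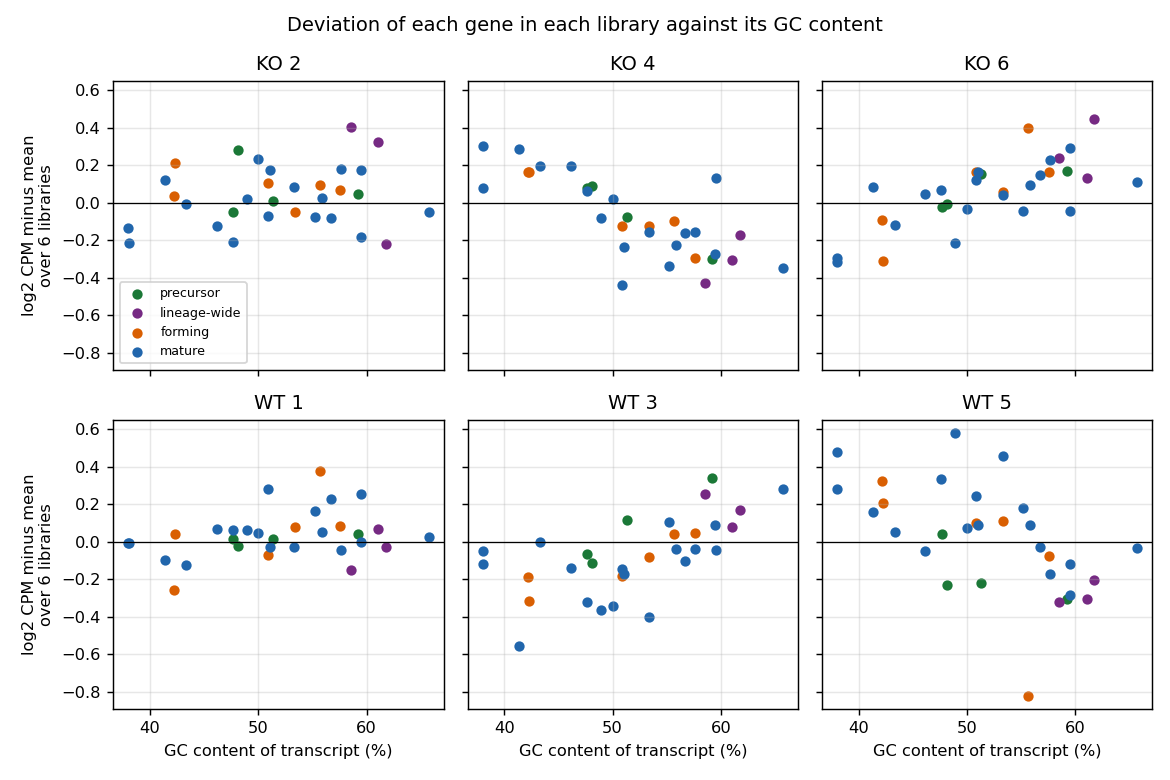
Each panel is a library (KO above, WT below), with the GC content of each gene's transcript in percent on the x axis and the gene's log2 CPM minus its mean over the 6 libraries on the y axis. Points fall with GC content in KO 4 and WT 5 (r = -0.78 and -0.57) and rise in KO 6 and WT 3 (r = 0.72 and 0.62).

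A smooth curve of each library's deviation on GC content was entered as an offset in the same edgeR fit, an alternative added after seeing the data. For spreads and stage levels, such a curve was subtracted from log2 CPM, also called the offset here. With it the spread within groups shrank for 25 of the 31 genes. The curve was fitted to these same libraries, so a smaller spread was partly built in. The median within-group SD of the members was 0.14 with the offset and 0.20 without it on the log2 scale, beside 0.15 and 0.21 over all genes. In Ugt8a it was 0.07 with the offset and 0.26 without, in Hapln2 0.08 and 0.25, in Ermn 0.09 and 0.27 and in Cspg4 0.12 and 0.28. Mobp did not follow, at 0.36 with the offset and 0.32 without, nor did Gal3st1, at 0.27 with the offset and 0.18 without. The mature stage still had WT 3 lowest (-0.15) and WT 5 highest (0.17) with the offset, and its range over the libraries was 0.32 with the offset and 0.26 without.

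The directions of all 31 log2 fold changes were the same with the offset, 17 of them positive. With it 0 members were called, against 0.154% of all genes. The count at an unadjusted p under 0.05 was 5 members, against 5.69% of all genes. These were Ugt8a (log2 fold change -0.23, SE 0.07, edgeR adjusted p = 0.569), Fa2h (-0.30, SE 0.09, edgeR adjusted p = 0.628), Mag (0.17, SE 0.06, edgeR adjusted p = 0.802), Aspa (0.32, SE 0.13, edgeR adjusted p = 0.822) and Pdgfra (0.25, SE 0.11, edgeR adjusted p = 0.841). The curve is estimated from the same libraries and its uncertainty is not in these p-values, which are therefore too small to an unknown extent.

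With KO 4 and WT 5 left out, which leaves 2 libraries a group, 0 members were called, against 0.231% of all genes. At an unadjusted p under 0.05 there were 7 of the 31 members, against 4.26% of all genes. The WT group then held only WT 1 and WT 3, and WT 3 had the lowest mature stage level of all libraries (-0.13). Mbp had a log2 fold change of 0.27 (SE 0.09, edgeR adjusted p = 0.824) without these libraries and 0.08 with them. Bcas1 was at 0.26 (SE 0.08, edgeR adjusted p = 0.791) without them and 0.10 with them, and Mag at 0.25 (SE 0.07, edgeR adjusted p = 0.707) without them and 0.18 with them. The others were Aspa (0.42, SE 0.17), Mobp (0.27, SE 0.11), Tspan2 (0.20, SE 0.08) and Ermn (-0.23, SE 0.09), each with an edgeR adjusted p of 1.0. Fa2h was not among the 7, at -0.19 (SE 0.10) without these libraries. The sizes of these fold changes thus rested on whether KO 4 and WT 5 were included, and none passed the test either way.

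Other genes of the lineage, from lists written with earlier results of these data known, were called in 0 cases in either direction. Of 36 other mature oligodendrocyte genes 22 were positive (median log2 fold change 0.03). Tubb4a, a tubulin of oligodendrocytes and neurons, was at 322 ± 55.7 FPKM in KO and 336 ± 46.1 FPKM in WT (mean ± SD, n = 3 libraries each). Apod, a secreted lipid carrier, was at 74.4 ± 1.82 FPKM in KO and 60.9 ± 4.96 FPKM in WT (log2 fold change 0.30, SE 0.09, adjusted p = 1.0 by edgeR). Tmem125 was at 3.87 ± 0.616 FPKM in KO and 2.59 ± 0.218 FPKM in WT (log2 fold change 0.59, SE 0.19, adjusted p = 1.0 by edgeR). KO and WT libraries did not overlap in 5 of the 36 genes, against 7.26% of all tested genes. Apod, Tmem125 and Pllp were higher in KO, while Padi2 (log2 fold change -0.54, SE 0.17), a protein deiminase that acts on myelin basic protein, and Anln (-0.22, SE 0.11) were lower. Pllp, Padi2 and Anln were chosen after their values were seen.

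Of 10 other forming genes 5 were positive (median -0.01). Fyn, a kinase that relays axonal signals, was at -0.06 and Zfp365 at 0.04 on the log2 fold change scale. Bmp4, a secreted factor made by cells that have just left the precursor state, was at 1.82, 2.65 and 3.23 CPM in KO 2, 4 and 6 and at 1.38, 1.53 and 0.954 CPM in WT 1, 3 and 5 (log2 fold change 0.98, SE 0.34, adjusted p = 1.0 by edgeR). Its counts were low, 13 to 45 per library, with the 3 KO libraries above the 3 WT libraries. Of 8 other precursor genes 3 were positive (median -0.10), with Ptprz1, a receptor phosphatase, at 0.02 and Lhfpl3 at -0.08.

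Of 14 genes of sphingolipid synthesis and breakdown 13 were positive with a median of 0.06, beside 48.8% positive over all tested genes. These genes share their libraries, so their signs are not independent. Of the 14, 0 were called, 0 had an unadjusted edgeR p under 0.05 and 0 separated the groups. Their summed level overlapped, at 2302 to 2689 CPM in KO and 2090 to 2644 CPM in WT, with WT 5 the lowest library. Psap, the precursor of the saposins, was at 0.03 (SE 0.11) and the lipid transporter Abca2 at 0.02 (SE 0.16). On the axonal side, 5 of 14 genes of axon contact and myelination signals were positive (median -0.03). Cntnap1, of the paranodal junction, was at -0.10 (SE 0.14), and Lgi3 at 0.04 (SE 0.13). Cntnap2, of the juxtaparanode, was at 6.94 ± 0.056 FPKM in KO and 8.10 ± 0.525 FPKM in WT (mean ± SD, n = 3 libraries each; log2 fold change -0.21, SE 0.09, adjusted p = 1.0 by edgeR), with no overlap between KO and WT libraries.

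Markers of other cells were read beside these values. Of 7 Schwann cell markers, which would show peripheral nerve roots, Pmp2 was at 0 in all libraries. The list summed to 41.6 to 47.4 CPM in KO and 42.2 to 47.8 CPM in WT, most of it from Drp2. Choroid plexus markers summed to 619 to 1840 CPM in KO and 156 to 749 CPM in WT, with 7 of 7 positive, 6 at an unadjusted p under 0.05 and 0 called. Microglia markers summed to 111 to 129 CPM in KO and 90.2 to 98.6 CPM in WT, without overlap, with 7 of 7 positive, 3 at an unadjusted p under 0.05 and 0 called. Astrocyte and Bergmann glia markers summed to 3560 to 3722 CPM in KO and 3442 to 3550 CPM in WT (6 of 7 positive), and granule cell markers to 5475 to 5629 CPM in KO and 5883 to 6022 CPM in WT (0 of 7 positive), both without overlap and with 0 called. Purkinje cell markers summed to 6979 to 8055 CPM in KO and 6428.5 to 7202 CPM in WT (7 of 7 positive, 0 called). Taken gene by gene, the groups did not overlap in 3 of 7 microglia, 0 of 7 astrocyte and 1 of 7 granule cell markers. Over all tested genes the share without overlap was 7.26%. The part of these cell types in the values of the 31 genes was not tested.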

How the data were processed

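RNA from 6 cerebella was made into libraries by a sequencing company, per the labels' protocols. The submitters' processing notes name HISAT2, DESeq2 and the build GRCm38.p6. No source used here gives their versions, the counting program or its strand setting. The deposited table holds raw counts per gene and FPKM, which the authors scaled to gene length and library size. The authors' group means (a normalized signal) were not used, and their log2 fold changes and p-values served only to count called members.

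Titles gave the groups. The test on counts was the quasi-likelihood test of edgeR 4.0.16 under R 4.3.3 (TMM, filterByExpr, Benjamini-Hochberg over 17142 genes, calls at 0.05). Each SE was derived from F and the log2 fold change. A single count equalled 0.0629 to 0.0733 CPM, so depth limits the low genes. The libraries are from separate animals. Alternatives covered DESeq2 1.42.0, normalization, filters, robust shrinkage, left-out libraries and a GC offset (lowess, span 0.3). The members, stages and lists were chosen with earlier results of these data known. All members are named; values per library are given for the 4 of highest FPKM per stage and for members without overlap or with an unadjusted p under 0.05. From other lists came the 2 of highest FPKM and up to 2 with such a p. Some list genes that this rule names are not reported here. Sequences are from GENCODE M21.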

Additional observations from a re-analysis of the deposited data

How the results depend on the processing

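Across 13 alternatives to the edgeR fit, 0 of the 31 genes were called, and the lowest adjusted p of any member was 0.569 (Ugt8a, GC offset). The count over all genes was 8 with all libraries and moved to 142 with no low-count filter, 42 with DESeq2, 40 with KO 4 and WT 5 left out and 26 with the GC offset. With single libraries left out it was 0 (without WT 1 or without WT 3) to 28 (without WT 5), with 2 without KO 2, 3 without KO 6 and 17 without KO 4. Without WT 1 and without WT 3, 473 and 442 genes had an unadjusted edgeR p under 0.05. With single libraries left out the median log2 fold change was -0.010 to 0.041 for the 31 genes, -0.0010 to 0.12 for precursor, -0.0062 to 0.28 for lineage-wide, -0.014 to 0.069 for forming and -0.10 to 0.045 for mature members. Directions held for 12 members under all 13 alternatives. With single libraries left out, 17 members changed sign, with these log2 fold change ranges: Cspg4 -0.21 to 0.11, Cspg5 -0.032 to 0.14, Tnr -0.030 to 0.031, Olig1 -0.029 to 0.28, Olig2 -0.0062 to 0.38, Sox10 -0.18 to 0.18, Enpp6 -0.080 to 0.20, Nkx2-2 -0.071 to 0.47, Tspan2 -0.048 to 0.26, Myrf -0.12 to 0.098, Mobp -0.23 to 0.20, Cnp -0.13 to 0.028, Mal -0.43 to 0.050, Opalin -0.23 to 0.10, Gal3st1 -0.15 to 0.053, Gjb1 -0.16 to 0.041, Gjc3 -0.036 to 0.12. With KO 4 and WT 5 both left out, 8 members changed sign, at log2 fold changes of Tnr -0.0085, Gpr17 0.0044, Myrf 0.052, Mobp 0.27, Cnp 0.054, Mal 0.047, Opalin 0.057, Lpar1 -0.0016. The cause was not tested. No paired analysis was possible because the animal numbers of the KO and WT libraries are not shared. Depth limits the low genes most, such as Nkx2-2 with 46 to 112 counts per library.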
